A study of Mus musculus with 549 samples.

Results

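Tibial cartilage of the left limb was compared with that of the right limb in mice that had not been loaded, which gives the limb difference that stands before any loading. The members are the cartilage libraries of the PTH and vehicle groups taken at the end of pretreatment, with libraries under 100000 recovered reads left out: 30 of the 32 libraries with values, among 549 samples that the series describes. The 30 libraries are 8 left and 7 right limbs of PTH mice and 7 left and 8 right limbs of vehicle mice. They come from 16 mice, 8 per treatment, and both limbs were kept for 14 mice, 7 per treatment. The mice are inferred from runs of library codes in the sample titles.

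All were male C57BL/6J mice, 18 weeks old at the start and 26 weeks old at harvest. The PTH mice had received parathyroid hormone (1-34), the amino-terminal fragment that builds bone when injected intermittently, at the 40 mg/kg/day that the labels state, a unit that could not be checked here and may be meant as a smaller one. The vehicle mice had received saline instead. Both were injected under the skin on 5 days per week for 8 weeks, and no limb of either group was loaded. In the rest of the series the left tibia was then compressed at a peak of 9 N, 4 Hz and 1200 cycles per day on 5 days per week, for 1 or 2 weeks in the groups set beside these, with the right limb as the contralateral control. Other loaded groups were treated with alendronate. Their limb differences are not given here, but their libraries entered the fits of loaded cartilage. The labels say that samples were not pooled. Transcripts were sequenced from their 3' ends, so a level counts reads per transcript end and is not divided by gene length.

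Articular cartilage covers the end of the tibia and is built by chondrocytes, which lay down a matrix of type II collagen and the proteoglycan aggrecan. Cells at its surface and in the synovial lining make lubricin, the product of Prg4, which keeps the joint slippery. When 1 limb is loaded and the other serves as its control, whatever separates left from right without loading is part of the contrast. In vertebrate embryos the left side is set apart from the right by Nodal signalling in the lateral plate.

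The label cartilage was checked against 11 marker genes. Col2a1, Acan, Comp, Sox9, Hapln1, Prg4, Col11a1 and Chad had reads in all 30 libraries. Matn3, a cartilage matrilin, was at 0 in 23 of the 30 libraries, Col9a1, a chain of type IX collagen, was at 0 in 9, and Cnmd, which the table lists under its older symbol Lect1, in 1. Such reads do not show that a sample was free of other tissue. Summed cartilage matrix and chondrocyte genes had medians of 6260 left and 4437 right, articular surface and synovial lining genes 36362 and 28367. Osteoblast genes had 19913 and 22739, neutrophil and myeloid precursor genes 28930 and 29994. Lists differ in size and level, so these sums are not shares of cells. Library depth ran from 794671 to 2374683 reads in left limbs, with a median of 1416932, and from 636661 to 2032723 reads in right limbs, with a median of 1175860. Over the 14 mice with both limbs, log2 depth was 0.12 higher on the left on average (SD 0.42, left deeper in 9 of 14, two-sided permutation test with 100000 resamples, p = 0.312). The libraries left out were 1 vehicle left limb with 52539 reads and 1 PTH right limb with 3630 reads.

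No gene passed the test of left against right limbs over both treatments. Of 13925 genes tested with limma, with treatment as a term and the mouse as a random block, 0 passed a Benjamini-Hochberg adjusted p of 0.05 (0% of genes tested), and the smallest adjusted p was 0.921. At an unadjusted p under 0.05 there were 459 genes (3.3%), of which 138 (0.991%) had a higher and 321 (2.31%) a lower value on the left. Counting recovered reads gave 0 genes with edgeR's quasi-likelihood test (475 at an unadjusted p under 0.05) and 0 with DESeq2 (499). For no gene did the 15 left values lie wholly apart from the 15 right values (0%). In the same libraries and the same limma fit, PTH mice differed from vehicle mice in 1929 genes (13.9%), 1137 higher and 792 lower.

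The differences were bounded more tightly for abundant than for scarce transcripts. The median standard error of the left-minus-right difference was 0.26 on the log2(value + 1) scale, and the 95% interval of a gene lay within 1 log2 unit of 0 for 11868 genes (85.2%). In the 3481 genes of highest level it lay within 1 unit for 98.7% and within 0.5 units for 68.3%, and in the 3482 of lowest level within 1 unit for 63.9% and within 0.5 units for 0 genes. The differences themselves had a median of -0.02, and 45.6% were positive. They had an SD across genes of 0.25, and 41 genes (0.294%) lay beyond 1 log2 unit.

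**Figure D1:**
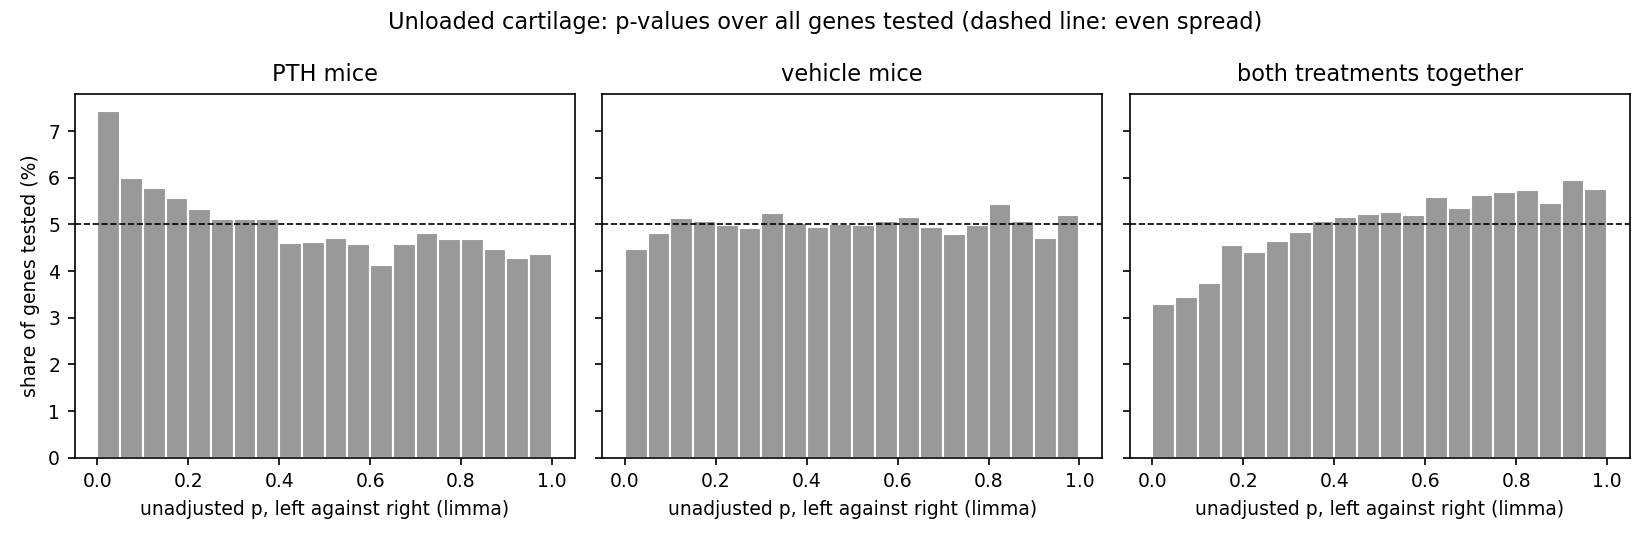
Share of the 13925 genes tested (y axis, %) in each of 20 bins of unadjusted limma p for left against right (x axis), in PTH mice, in vehicle mice and in both together; the dashed line is an even spread. The lowest bin holds 7.43% of genes in PTH mice, 4.48% in vehicle mice and 3.3% in both together.

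Since no gene passed, the 10 genes of smallest p among those with a mean log2 level of 3 or more and an established symbol are given as values. Pde4b, a phosphodiesterase that breaks down cyclic AMP (GRCm38 chromosome 4, 102087543 to 102607259, plus strand, protein coding), ran from 25.8 to 83.2 normalised counts in left limbs, with a median of 44.2, and from 16.4 to 44 in right limbs, with a median of 27.5. Its ranges overlapped, and left was higher in 13 of 14 mice. The difference was 0.64 ± 0.16 (log2, SE; limma p = 0.000375, adjusted p = 0.921). Il34, a cytokine that acts on the receptor of macrophage colony-stimulating factor, ran from 2.53 to 18.8 in left limbs, with a median of 9.31, and from 6.80 to 26.0 in right limbs, with a median of 19.2. Left was higher in 2 of 14 mice, and the difference was -0.86 ± 0.22. Il2rb, a receptor chain for interleukins 2 and 15 on T and natural killer cells, ran from 3.56 to 33.9 in left limbs, with a median of 14.0, and from 0.552 to 25.8 in right limbs, with a median of 7.03, and differed by 1.07 ± 0.28. Left and right values overlapped for both.

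The other 7 of these genes had differences of 1.10 for Fstl3, a secreted binder of activins, 0.63 for Rnf8, a ubiquitin ligase of DNA damage signalling, 0.58 for Rcbtb1 and 0.40 for Nfatc3, a calcium-regulated transcription factor. On the negative side were Srek1ip1 at -0.53, Akr1e1 at -0.80 and Adipoq, the fat cell hormone adiponectin, at -1.0. Adjusted p was 0.921 for Pde4b, Il34 and Il2rb and 1 for the other 7 by limma. In vehicle mice after 1 week of loading the left-minus-right difference was -0.56 for Pde4b and 0.08 for Il34, of the opposite sign, and after 2 weeks it was 0.40 and 0.52. None of these 4 loaded values passed the test.

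The genes that make and organise cartilage matrix showed no limb difference past the test. Col2a1, type II collagen (chromosome 15, 97975602 to 98004695, minus strand), ran from 115 to 674 in left limbs, with a median of 238, and from 124 to 801 in right limbs, with a median of 235. The difference was -0.14 ± 0.24, with a 95% interval from -0.62 to 0.34. Acan, aggrecan, ran from 30.6 to 436 in left limbs, with a median of 200, and from 47 to 430 in right limbs, with a median of 129. Its difference was 0.30 ± 0.32, with an interval from -0.35 to 0.94. For both genes the 2 limbs covered nearly the same range. Sox9, the transcription factor of chondrocytes, had 0.39 ± 0.29, Comp, a matrix glycoprotein, 0.11 ± 0.29 and Chad, chondroadherin, 0.33 ± 0.26. The 2 members of smallest p were both negative. Col9a1 had -0.71 ± 0.48, with -1.79 in vehicle mice and 0.36 in PTH mice. Matn4, another matrilin, had -0.48 ± 0.34, with 0.18 in vehicle mice and -1.14 in PTH mice. Of the 23 tested members of the cartilage matrix and chondrocyte list, 0 passed and 15 were positive, with a median of 0.08 against -0.02 over all genes tested.

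Joint surface genes also showed no limb difference past the test over both treatments. Prg4 (chromosome 1, 150449412 to 150466165, minus strand) ran from 3774 to 60661 in left limbs, with a median of 27376, and from 6161 to 110866 in right limbs, with a median of 23286. The difference was 0.07 ± 0.38, with an interval from -0.69 to 0.83. The counts of the limbs overlapped over most of their range. By treatment, the Prg4 difference was 0.66 in vehicle mice and -0.52 in PTH mice, of opposite sign. The 19 members of the articular surface and synovial lining list had 0 passing, 15 positive and a median of 0.20. In vehicle mice 18 of 19 were positive, with a median of 0.52, against 47.8% of all genes tested. In PTH mice 7 of 19 were positive, with a median of -0.05, against 46% of all genes tested. Has2, a hyaluronan synthase, had 0.70 ± 0.41, and Cilp, a matrix protein of the middle zone of cartilage, had 0.49 ± 0.32, the smallest p of that list being 0.0929.

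**Figure D2:**
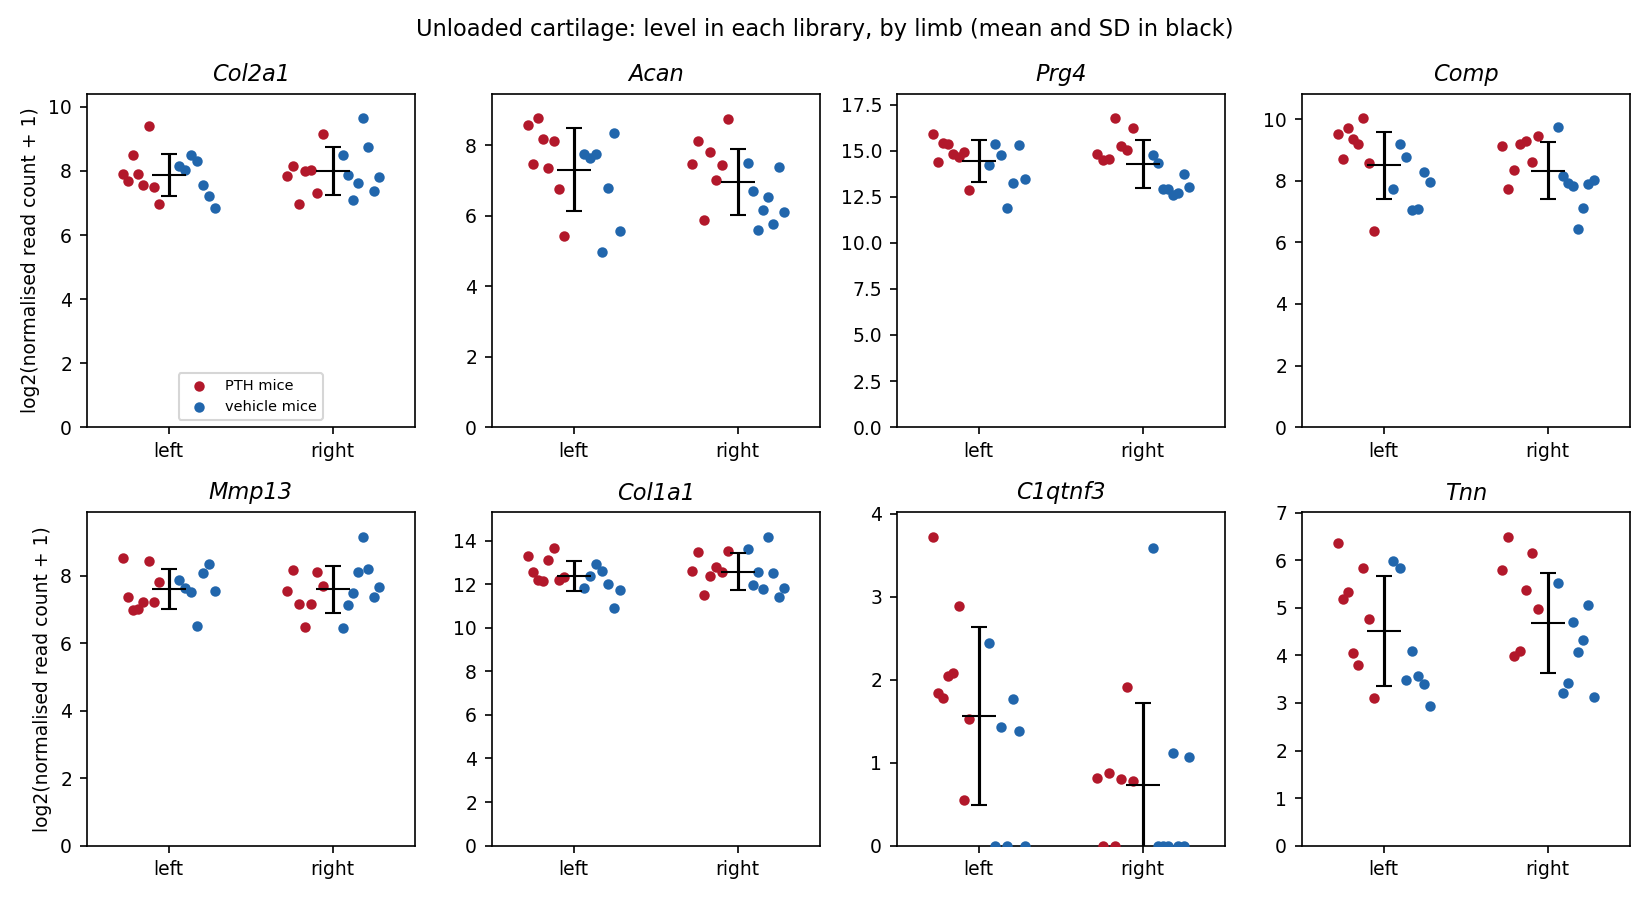
Level of 8 genes in each of the 30 unloaded libraries (y axis, log2 of normalised read count + 1), left limbs beside right limbs (x axis), red for PTH mice and blue for vehicle mice; black bars are the mean and SD of 15 libraries. The limbs cover overlapping ranges for every gene, among them Prg4, with medians of 27376 left and 23286 right, and C1qtnf3, with medians of 2.40 left and 0.723 right.

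Enzymes that break down matrix and the genes of fibrous repair were also without a call. Mmp13, the main collagenase of cartilage, ran from 89.6 to 363 in left limbs and from 86.9 to 568 in right limbs, with a median of 185 in each, and differed by 0.02 ± 0.22. Its 95% interval ran from -0.41 to 0.46. Mmp3, stromelysin, had -0.37 ± 0.39, Mmp14, a membrane-bound collagenase, -0.19 ± 0.17, and Timp1, an inhibitor of these enzymes, -0.07 ± 0.24. The list of matrix breakdown and joint inflammation had 0 of 24 tested members past the threshold, 8 positive and a median of -0.08. Col1a1, type I collagen, had -0.21 ± 0.27, with 1902 to 12865 in left limbs and 2696 to 18526 in right limbs. Among 27 fibrous matrix and TGF-beta response genes 0 passed and 10 were positive, with a median of -0.04. Acta2, smooth muscle actin, had the smallest p of that list, with -0.74 ± 0.34 and p = 0.0342 before adjustment.

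Over the 28 gene lists with at least 5 tested members, medians of left minus right ran from -0.72 to 0.35, and 23 of the 28 lay within 0.2 log2 units of 0. No list had a member past the threshold. The highest median was that of T and natural killer cell genes, where 12 of 13 were positive and 1 of 13 was under an unadjusted p of 0.05. The lowest was that of the 17 adipocyte genes, all negative, of which 9 were under an unadjusted p of 0.05, against 2.31% of all genes tested on the lower side. Respiratory chain genes had 2 of 30 positive, a median of -0.18 and 4 under an unadjusted p of 0.05; Ndufs1, a subunit of complex I, had -0.32 ± 0.13. Immediate early and handling stress genes, which respond within minutes of dissection, had a median of -0.06 and 0 of 28 under that p. Fos had -0.33 ± 0.32 and Egr1 0.06 ± 0.29. Clock genes had a median of 0.03, and Dbp, a clock output gene, had 0.02 ± 0.31. Myeloid, erythroid, platelet and B cell lists had medians from -0.02 to 0.11.

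Most genes of left-right patterning had too few reads for a test. Nodal, Lefty2, Cfc1, Gdf1 and Shh had 0 reads in all 30 libraries. Of this list only Lefty1, Dand5, Pkd2 and Ccdc39 had enough reads for a test. Pkd2, a calcium channel of the embryonic node that many adult cells also make, had a median of 68.2 in left and 74.8 in right limbs and differed by 0.17 ± 0.25. Among genes of limb identity, Pitx1, which marks the hindlimb, had a median of 11.2 in left limbs and 9.16 in right limbs, a difference of -0.15 ± 0.35. Of 20 tested limb position genes, most of them Hox genes, 12 were positive and 0 were under an unadjusted p of 0.05, with a median of 0.02.

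Within treatments, PTH mice had 5 genes that were lower in left than in right limbs and 0 that were higher (0.0359% of genes tested; limma, 8 left and 7 right limbs), and vehicle mice had 0 (0%). In PTH mice 1035 genes (7.43%) had an unadjusted p under 0.05, 387 (2.78%) with a higher and 648 (4.65%) with a lower value on the left. In vehicle mice 624 (4.48%) did, and edgeR and DESeq2 also called 0 there, with 624 and 668 under that p. The 5 genes were singled out after their values were seen. They were called with the mouse as a random block, while the count was 1 with a pseudocount of 0.25, 21 with edgeR and 37 with DESeq2. None of the 5 was called with the mouse as a fixed block, where the smallest adjusted p was 0.329, in a fit of PTH mice alone (0.0519) or with the shallow libraries added (0.561). Leaving out 1 library moved the count from 5 to 2 (PTH right 1 or 7), 3 (PTH right 9 or PTH left 4, 6, 10 or 14), 10 (PTH right 5), 11 (vehicle left 4), 21 (PTH right 3) or 22 (PTH right 13).

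Pck1, the enzyme that makes phosphoenolpyruvate for glucose and, in fat cells, for glycerol (chromosome 2, 173153048 to 173159273, plus strand), ran from 0 to 5.29 in PTH left limbs, with a median of 3.01, and from 6.07 to 185 in PTH right limbs, with a median of 58.8. Every right limb lay above every left limb. The difference was -3.63 ± 0.62 (limma, adjusted p = 0.00749, lower on the left in 7 of 7 mice). Plin1, the coat protein of fat cell lipid droplets (chromosome 7, 79720218 to 79732903, minus strand), ran from 0 to 2.14 in PTH left limbs, with a median of 0.870, and from 2.72 to 43.8 in PTH right limbs, with a median of 17.6. It too had no overlap, with a difference of -2.86 ± 0.53 (limma, adjusted p = 0.0202, lower in 7 of 7 mice).

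Maob, a monoamine oxidase of mitochondria, ran from 1.73 to 9.5 in PTH left limbs and from 11.9 to 35.9 in PTH right limbs, also without overlap. Its difference was -1.83 ± 0.36 (limma, adjusted p = 0.0278). Arxes2, a gene expressed in adipocytes, ran from 0 to 1.89 in PTH left limbs and from 1.36 to 38.5 in PTH right limbs, with a difference of -2.88 ± 0.49 (limma, adjusted p = 0.00749). It has a near-identical neighbour, Arxes1, so its reads are uncertain. Abcd2, a transporter of very long chain fatty acids into peroxisomes, ran from 15.3 to 45.8 in PTH left limbs and from 27.0 to 108 in PTH right limbs, with a difference of -1.37 ± 0.26 (limma, adjusted p = 0.0278). Arxes2 and Abcd2 overlapped between limbs. In all, 10 genes (0.0718%) had PTH left and PTH right values wholly apart, and 5 genes (0.0359%) had so in vehicle mice.

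In vehicle mice the 5 genes had differences from 0.02 for Maob to 0.81 for Pck1 and Plin1. The highest vehicle value of Pck1, 28.0, was in a left limb, and vehicle right limbs reached 1.92. The difference between treatments did not pass the test for these genes. It was -4.43 ± 0.87 for Pck1, -3.67 ± 0.75 for Plin1 and -3.37 ± 0.70 for Arxes2 (limma, adjusted p = 0.085 for each), and it had an adjusted p of 0.196 for Abcd2 and 0.29 for Maob.

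The adipocyte genes stood with these 5. In PTH mice all 17 members of the list were negative, with a median of -1.66 against -0.04 over all genes, 16 had an unadjusted p under 0.05, and 1, Plin1, passed the adjusted threshold. Of all genes tested in PTH mice, 46% were positive, 4.65% were under that p on the lower side and 0.0359% passed. In vehicle mice 11 of 17 were positive, with a median of 0.24, and 0 were under that p. Adipoq had a median of 53.4 in PTH left limbs and 240 in PTH right limbs, and Cfd, the fat cell protease adipsin, had 139 and 1775 in the same limbs. Their differences in PTH mice were -1.87 ± 0.40 and -2.33 ± 0.74, with adjusted p of 0.0666 and 0.375 by limma. The list was chosen with earlier results of these data known.

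The summed level of the adipocyte list ran from 836 to 1911 in PTH left limbs and from 888 to 12448 in PTH right limbs. Of the PTH right limbs 5 of 7 were at 2721 or more, above every PTH left limb, and the other 2 were at 888 and 1198. Vehicle left limbs ran from 761 to 5426 and vehicle right limbs from 711 to 1748, and the 5426 belongs to 1 left library, without which the next vehicle left limb was at 1590. The sum was lower on the left in 6 of 7 PTH mice and in 2 of 7 vehicle mice. Adipoq, Cfd and Fabp4 had reads in every library, while Lep was at 0 in 8 left and 7 right limbs and Adrb3 in 8 and 9. In bulk tissue fewer cells of a type and less RNA per cell cannot be told apart, and the part of fat in the calls of PTH mice was not tested.

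**Figure D3:**
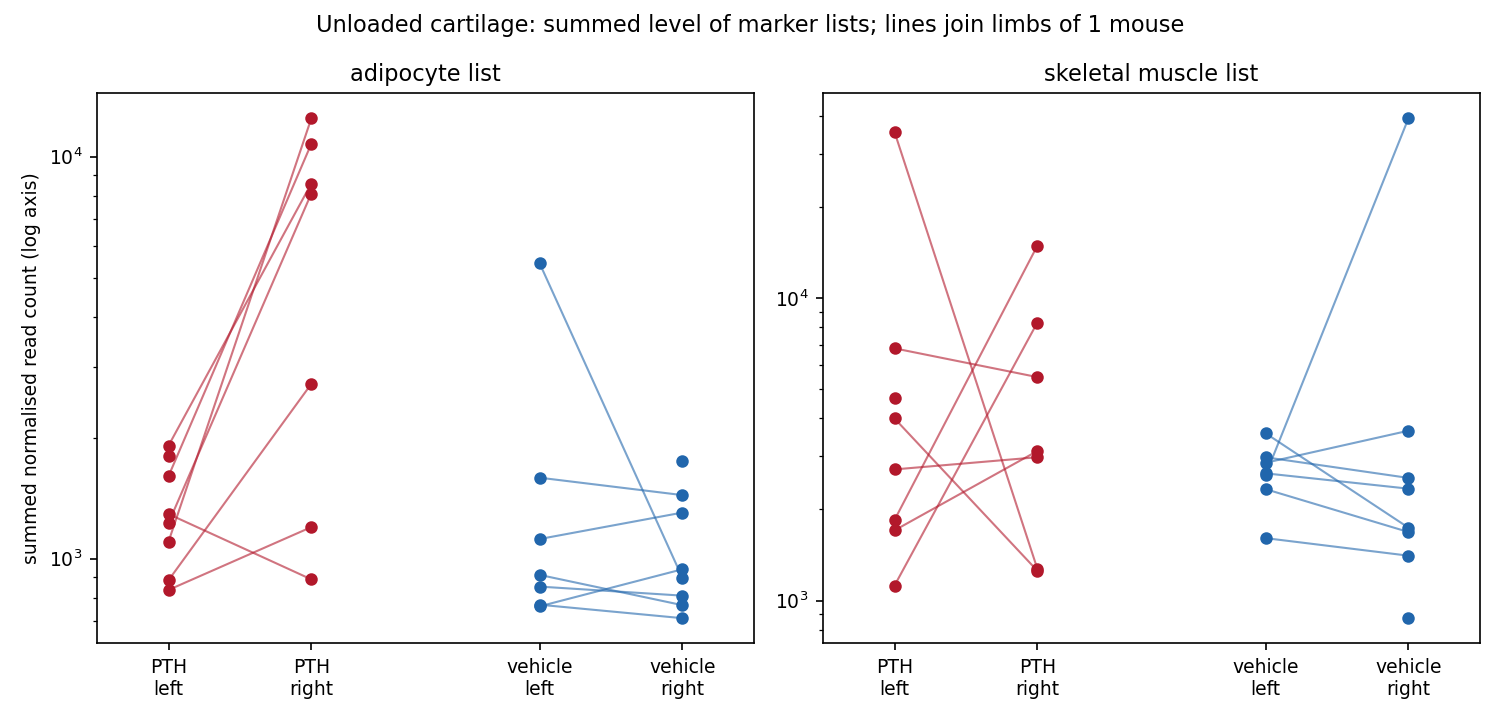
Summed normalised read count of the adipocyte and skeletal muscle lists (y axis, log scale) in each unloaded library, PTH left and right beside vehicle left and right (x axis); lines join the limbs of 1 mouse. The adipocyte sum reaches 12448 in PTH right limbs against at most 1911 in PTH left limbs, while the muscle sum spans 1120 to 35475 in left and 874 to 39308 in right limbs.

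Skeletal muscle genes varied widely in both limbs. Their summed level ran from 1120 to 35475 in left limbs, with a median of 2714, and from 874 to 39308 in right limbs, with a median of 2544. Of 25 tested members 12 were positive, 0 passed and the median was -0.09. Acta1, skeletal actin, had 113 to 3202 in left and 51.2 to 2141 in right limbs and a difference of 0.13 ± 0.43. Myh2, a fast myosin heavy chain, had 6.77 to 75.1 in left and 5.37 to 499 in right limbs, with -0.36 ± 0.43.

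No gene passed limma's test of the limb difference in PTH mice against that in vehicle mice (0 of 13925, 0%; 1261 or 9.06% at an unadjusted p under 0.05). On recovered reads edgeR called 1 gene (1314 at that p) and DESeq2 called 38 (1376). By limma 5 genes passed without PTH right 3, and 2 without PTH right 13 or without vehicle left 12. Across the 13925 genes the limb differences in PTH and in vehicle mice had a Pearson r of -0.20, a description over genes that are not independent. The 3 of smallest p among genes with a mean log2 level of 3 or more were Prkag1, Epn1 and Abcd2, which leaves out the scarcer Pck1, Plin1 and Arxes2 given above. Prkag1, a regulatory subunit of AMP-activated kinase, ran from 49.8 to 102 in PTH left limbs and from 38.1 to 64.1 in PTH right limbs, against 40.6 to 80.6 in vehicle left and 72.6 to 111 in vehicle right limbs. Left was higher in 7 of 7 PTH mice and in 0 of 7 vehicle mice, and the limb difference was 1.14 ± 0.24 larger in PTH mice (limma, adjusted p = 0.106). Epn1, an endocytic adaptor, had 1.42 ± 0.31 and Abcd2 -1.62 ± 0.37.

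After loading the same contrast gave many calls in tables normalised on their own, so the values stand side by side and their difference was not tested. In mice given vehicle before and during loading, limma called 192 genes (1.3%) between loaded left and contralateral right limbs at 1 week, when they were 27 weeks old, 148 higher (1%) and 44 lower (0.299%). At 2 weeks, at 28 weeks of age, it called 208 (1.37%), 171 higher (1.13%) and 37 lower (0.244%). In mice given PTH before and vehicle during loading it called 441 (2.99%) at 1 week, 343 higher (2.33%) and 98 lower (0.665%), and 716 (4.71%) at 2 weeks, 521 higher (3.43%) and 195 lower (1.28%). The SD of the limb difference across genes was 0.25 in unloaded mice, 0.61 at 1 week and 0.60 at 2 weeks in vehicle mice. Within unloaded vehicle mice alone, a group of like size, it was 0.37.

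Genes higher in loaded limbs of vehicle-only mice had medians near 0 in unloaded mice of both treatments together. Of the 148 genes higher at 1 week, 144 were tested before loading and 0 were called, with a median of -0.04 in unloaded mice against 1.57 in mice loaded for 1 week. Of the 171 genes higher at 2 weeks 161 were tested, 0 were called, and the medians were -0.04 in unloaded and 1.91 in loaded mice. These genes were chosen by their loaded values, which are given as a description. On vehicle mice alone, medians before loading were 0.12 (98 of 144 positive) and 0.07 (100 of 161) for these genes, against 47.8% of all genes positive. Genes higher in loaded PTH-pretreated mice had unloaded medians of -0.03 at 1 week and -0.01 at 2 weeks over both treatments. In unloaded PTH mice alone they had -0.17 (101 of 324 positive) and -0.19 (131 of 504), against 46% of all genes positive.

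C1qtnf3, a secreted relative of complement C1q made by cartilage cells (chromosome 15, 10952332 to 10980150, plus strand), ran from 0 to 12.2 in unloaded left limbs, with a median of 2.40, and from 0 to 11.0 in unloaded right limbs, with a median of 0.723. It was at 0 in 3 left and 7 right limbs. The unloaded difference was 0.80 ± 0.36 (limma p = 0.0316 before adjustment), with an interval from 0.07 to 1.52. It was 1.31 ± 0.49 in unloaded PTH mice and 0.28 ± 0.49 in unloaded vehicle mice. The loaded difference in vehicle mice was 4.04 ± 0.76 at 1 week and 5.07 ± 0.70 at 2 weeks. Among the load-raised genes with an unloaded test it was thus the 1 with a positive unloaded difference under an unadjusted p of 0.05 at 1 week.

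Tnn, tenascin-W, a matrix protein of skeletal growth and repair, had a median of 16.0 in unloaded left and 24.9 in unloaded right limbs. Its difference was -0.23 ± 0.34 in unloaded mice, 2.94 at 1 week and 4.01 at 2 weeks. Timp1 had -0.07, 2.38 and 2.41 at the same 3 times, Mmp14 had -0.19, 2.05 and 2.21, and Col2a1 had -0.14, 1.92 and 2.40. Lrrc15, a membrane protein of matrix-making mesenchymal cells, had 0.21, 3.28 and 4.12. Il11, an interleukin of the interleukin 6 family, was at 0 in 6 left and 6 right unloaded limbs and had -0.09, 3.05 and 3.21. The load-raised list, chosen on the loaded libraries of this series, had a median of -0.12 in unloaded mice of both treatments, with 8 of 32 positive. In unloaded vehicle mice alone its median was 0.05. In loaded vehicle-only mice its median was 2.31 at 1 week and 2.73 at 2 weeks.

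**Figure D4:**
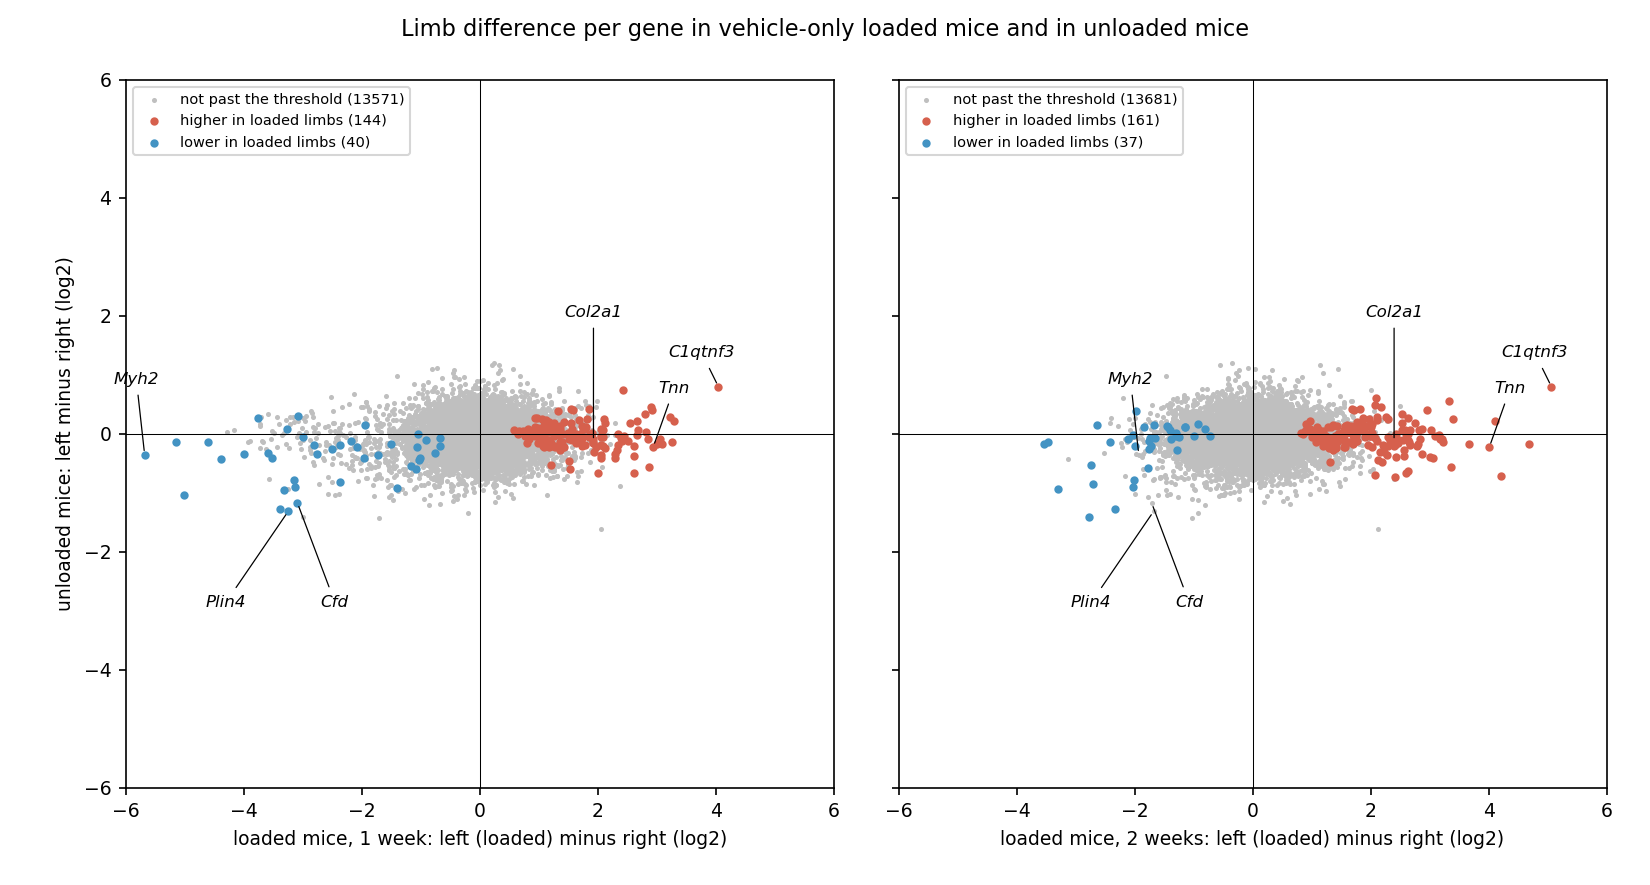
Left minus right difference (log2) of each gene in unloaded mice (y axis) against that in mice given vehicle throughout and loaded for 1 week (left panel) or 2 weeks (right panel) (x axis), on equal scales; red and blue mark genes past the threshold after loading. The 144 red genes at 1 week have a median of 1.57 on the loaded axis and -0.04 on the unloaded axis, and Cfd and Plin4 lie below 0 on both.

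Genes lower in loaded limbs differed between the weeks in their unloaded values, a difference that was not tested. Of the 44 lower at 1 week, 40 were tested before loading: 0 were called, 35 of 40 had the same sign, 10 had an unadjusted p under 0.05 with that sign, and the medians were -0.34 in unloaded and -2.63 in loaded mice. Of all 13925 genes tested in unloaded mice, 7569 were negative and 2.31% were under that p on the lower side. In unloaded vehicle mice 7274 were negative. In unloaded vehicle mice alone the median of these 40 was -0.02, with 21 of the same sign. All 37 genes lower at 2 weeks were tested before loading: 0 were called, 25 had the same sign, 3 had an unadjusted p under 0.05 with that sign, and the medians were -0.08 in unloaded and -1.75 in loaded mice. In unloaded vehicle mice alone the median of these 37 was 0.03. The 40 genes at 1 week include 6 members of the adipocyte list and 3 of the muscle list, and the part of these tissues in the loaded difference was not tested. Plin4, another lipid droplet coat protein, had -1.32 ± 0.52 in unloaded mice, -0.32 in unloaded vehicle mice and -3.25 ± 0.69 at 1 week. Cfd had -1.17 ± 0.56, -0.01 and -3.09 ± 0.76 in the same order. Myh2 had -0.36 in unloaded mice and -5.68 at 1 week.

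As whole lists, adipocyte genes had a median of -0.72 in unloaded mice of both treatments together. In unloaded vehicle mice alone it was 0.24, of the opposite sign, and in unloaded PTH mice -1.66. In loaded vehicle-only mice it was -1.56 at 1 week and -1.03 at 2 weeks. Muscle genes had -0.09 in unloaded mice of both treatments and -0.12 in unloaded vehicle mice. In loaded vehicle-only mice they had -3.41 and -0.97. In mice pretreated with PTH, 182 genes lower after 2 weeks of loading were tested before loading. Of these, 74 had the same sign in unloaded mice of both treatments together. In unloaded PTH mice alone 57 had the same sign, the median was 0.19, and 1, Plin1, was called. Of all 13925 genes tested, 7569 were negative in unloaded mice and 7522 in unloaded PTH mice, where 0.0359% were called.

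**Figure D5:**
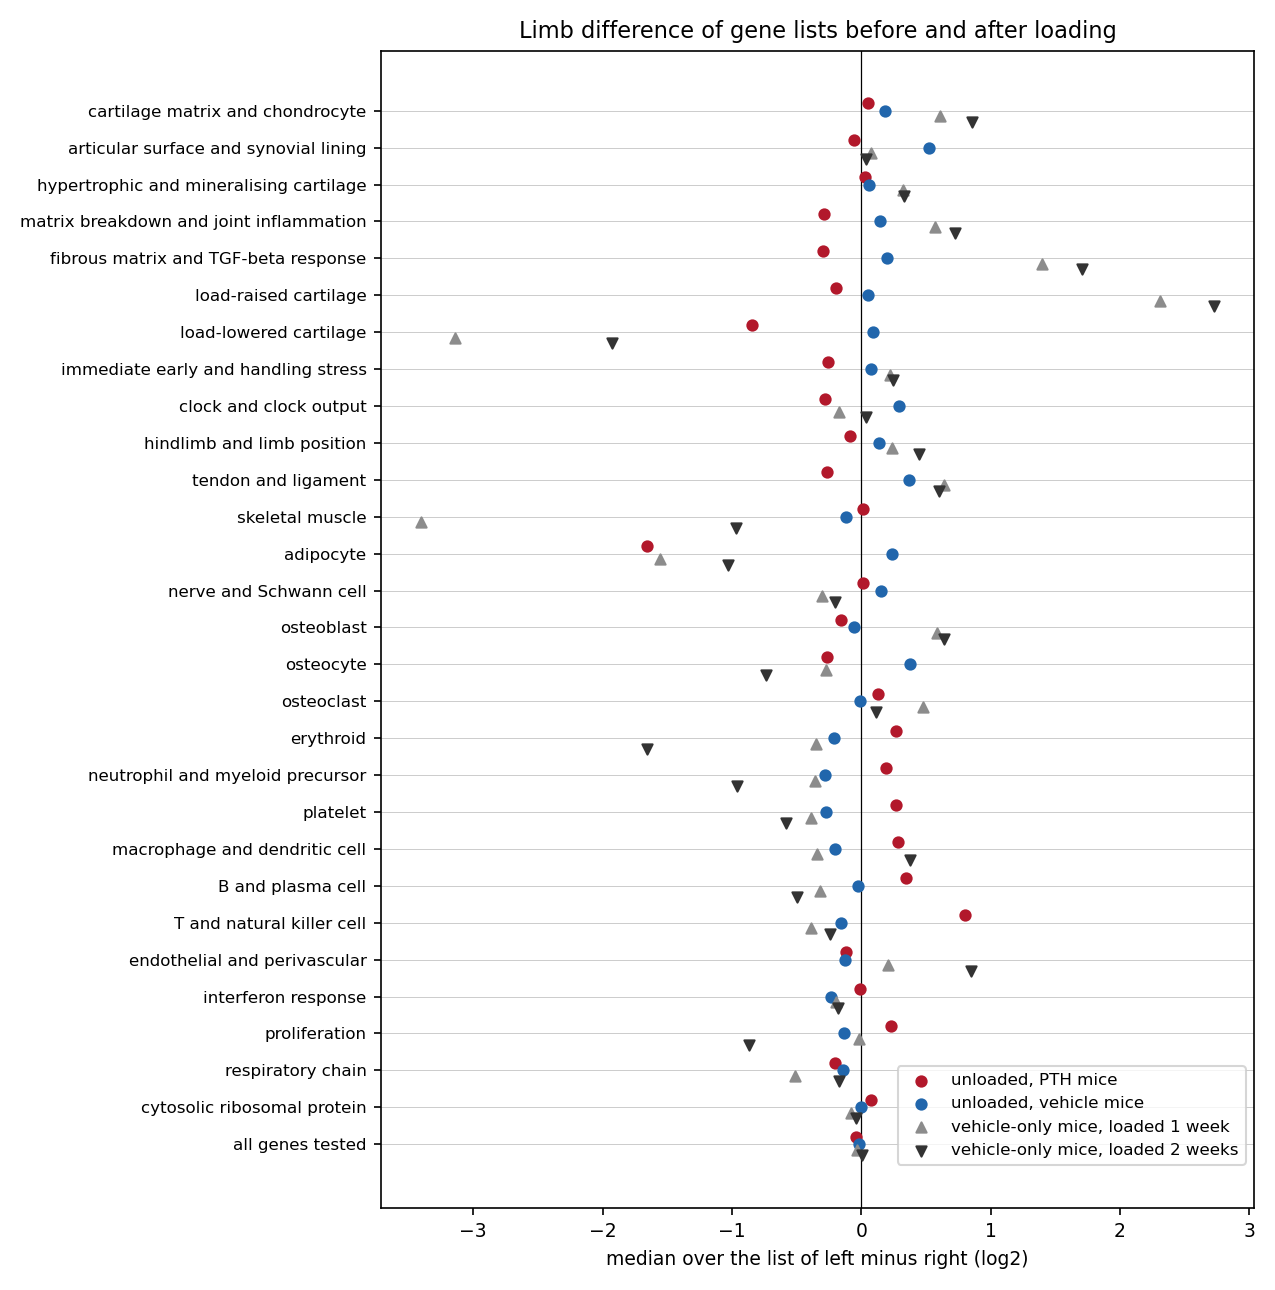
Median left minus right difference (x axis, log2) over the tested members of each gene list (y axis) in unloaded PTH mice (red circles), unloaded vehicle mice (blue circles) and vehicle-only mice loaded for 1 week (grey) or 2 weeks (black triangles). The adipocyte list lies at -1.66 in unloaded PTH mice, 0.24 in unloaded vehicle mice and -1.56 and -1.03 after loading, and the load-raised list at 2.31 and 2.73 after loading.

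The other tissues of unloaded mice gave the same count, with less precision in bone. The median standard error was 0.18 in lymph node (16 left and 16 right limbs), against 0.26 in cartilage. It was 0.45 in cortical bone (8 left and 8 right limbs) and 0.56 in cancellous bone (8 left and 7 right limbs). Between left and right limma called 0 of 13450 genes in lymph node (0%; 279 or 2.07% at an unadjusted p under 0.05), 0 of 14232 in cortical bone (0%; 532 or 3.74% at that p) and 0 of 13806 in cancellous bone (0%; 258 or 1.87% at that p). On recovered reads edgeR called 0 in each, with 269, 329 and 251 at that p. Across genes the limb difference in cartilage had a Pearson r of -0.08 with that in lymph node over 12796 genes, -0.02 with cortical bone over 13573 and -0.03 with cancellous bone over 13368. With the loaded difference of vehicle mice it had 0.08 at 1 week over 13755 genes and 0.05 at 2 weeks over 13879. Within PTH mice, unloaded against loaded differences had a Pearson r of -0.07 at 1 week and -0.22 at 2 weeks. Within vehicle mice it was 0.06 and 0.01.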

How the data were processed

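The deposited values are the authors' normalised read counts per gene, a depth-scaled signal; per the submitters' processing notes the tools named are Trimmomatic 0.39, STAR and edgeR and the build is mm10, and the notes used here give no order or settings. Dividing a column by its smallest nonzero value gave whole reads for 100% of values within 0.01 of a read, which gave the depths and the count tests. Entries that name no gene (27 of 23412) held 0.151% of reads and were left out, and 0 per-sample columns were left out for want of a sample label. Libraries under 100000 reads were dropped.

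Genes at a CPM of 1 or more in at least 7 libraries were tested on log2(value + 1) with limma 3.58.1 (R 4.3.3), with treatment as a term and the mouse as a random block (statmod 1.5.0, correlation from 2000 genes), a trended variance and Benjamini-Hochberg adjustment at 0.05. The estimated within-mouse correlation was -0.0017. Limb differences per treatment and their interaction came from the 4 group means. After loading, all cartilage groups of a week, alendronate groups included, entered the same fit and so shared its variance and mouse correlation. All differences are left minus right on this scale, which understates the change of scarce genes. Alternatives used edgeR 4.0.16 and DESeq2 1.42.0 on recovered reads, other scalings, filters, blocks and sample sets. The limma and edgeR steps were tested on simulated data. Intervals are 95% intervals of the mean left-minus-right difference. They rest on limma's standard error, drawn from the spread between these libraries, and are not the range of single libraries.

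Limbs of unloaded mice were assigned to mice from the codes in the titles, which differ by 7 between the limbs of a mouse; in unloaded cartilage the limbs of a mouse never shared a replicate number (0 of 16). In the loaded groups they did, except that replicate 5 of the PTH and alendronate group at 1 week had codes of different mice for left and right. Where codes held letters the replicate number gave the pair. Deviations from the group means correlated with a median of 0.052 between limbs of 1 mouse (14 pairs, -0.227 to 0.235, 5 of them over 0.1). Between left and right limbs of different mice of a treatment the median was 0.005 (98 pairs, -0.418 to 0.409, 19 of them over 0.1). The range between different mice thus held the range within mice.

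Genes named are those 10 of smallest p with a mean log2 level of 3 or more, examples from the lists with the smallest p, a set of cartilage, loading and tissue genes, and the 3 of smallest p for the interaction under the same level minimum. The comparison, the genes and the lists were chosen with earlier results of these data known. Positions are from GENCODE M21 on GRCm38 (mm10).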

Additional observations from a re-analysis of the deposited data

Results flagged for a closer look

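Among 360 combinations of 90 genes and 4 groups, 33 had a highest or lowest library set apart from the others of its group; chance gives about 1 in 20. Values are log2(value + 1). In PTH left limbs, Cd8a in replicate 16 (5.61) and Has2 in replicate 8 (3.75) stood high, and Cilp (8.98) and Comp (6.38) in replicate 16, Klf1 in replicate 2 (3.08), Mrc1 in replicate 6 (6.07) and Srek1ip1 in replicate 8 (4.22) stood low. In PTH right limbs, Esam (5.75) and Npas2 (2.45) in replicate 7 stood high, and Klf1 in replicate 15 (2.21) and Mepe (5.46) and Mmp3 (2.11) in replicate 5 stood low.

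In vehicle left limbs, Adipoq in replicate 4 (7.64) stood high, the library that also had the highest adipocyte sum of its group. Bub1b (3.17) and Cebpe (4.16) in replicate 14, Mmp8 in replicate 4 (7.38) and Prkag1 in replicate 8 (5.38) stood low. In vehicle right limbs, replicate 9 was high for Aurkb (6.71), C1qa (8.80), Esam (6.41), Klf1 (8.03) and Pf4 (11.49) and low for Egr1 (3.46). Replicate 1 was high for C1qtnf3 (3.59), Il11 (3.29) and Pkd2 (6.53) and low for Gp9 (5.04) and Prkag1 (6.20). Replicate 15 was high for Ckmt2 (6.43) and Myh2 (8.97), replicate 11 for Rpl10a (5.47), and Cebpe in replicate 13 (4.63) and Pck1 in replicate 5 (0.00) were low.

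Prkag1 was higher on the left in 7 of 7 PTH mice and lower on the left in 7 of 7 vehicle mice; the limb difference was 1.14 log2 units larger in PTH mice, and limma's test of that difference gave an adjusted p of 0.106.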

How the results depend on the processing

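Left against right over both treatments, and within vehicle mice, had 0 calls under every setting run, among them other pseudocounts, filters and scalings, array weights, all libraries kept, edgeR, DESeq2, no replicate block, the mouse as a fixed replicate block (0; 445 and 686 genes at an unadjusted p under 0.05) and each library left out. A depth minimum of 500000 reads kept the same libraries, so it could not change a count. The 5 calls in PTH mice became 1 with a pseudocount of 0.25, 21 with edgeR, 37 with DESeq2, 0 with the mouse as a fixed replicate block, 0 with all libraries kept and 0 in a fit of PTH mice alone; leaving out 1 library gave 2 to 22. The 0 calls of the interaction became 2 with a pseudocount of 5, 1 with edgeR, 38 with DESeq2 and 5 with array weights, and 0 to 5 with 1 library left out. After loading, array weights gave 1058 and 1389 calls at 1 week and 2181 and 3652 at 2 weeks, for vehicle-only and PTH-pretreated mice. The cause was not tested. Of 1829 values of named genes under an alternative, 0 reversed a called direction, 38 lost and 18 gained a call, and 60 uncalled values changed sign. Alternatives for the single treatments, and some for the interaction, were chosen after seeing the data. Depth limits scarce genes most: in the 3482 genes of lowest level 63.9% of intervals lay within 1 log2 unit.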

Other observations

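Several gene lists had limb differences of opposite sign in PTH and in vehicle mice, with 0 members past the adjusted threshold of limma in either. Erythroid genes were positive for 11 of 11 members in PTH mice, with a median of 0.27. In vehicle mice 1 of 11 was positive, with a median of -0.21. In each treatment 0 of 11 were under an unadjusted p of 0.05. Platelet genes had 9 of 12 positive and a median of 0.27 in PTH mice, and 1 of 12 and -0.27 in vehicle mice. Under that p were 1 of 12 in PTH mice and 0 in vehicle mice. The erythroid and platelet sums were each higher on the left in 4 of 7 PTH mice. In vehicle mice this held for 1 of 7 and 2 of 7. T and natural killer cell genes had a median of 0.80 in PTH mice, with 4 of 13 under an unadjusted p of 0.05, against 7.43% of all genes tested, and -0.16 in vehicle mice, with 0 of 13. Their summed level reached 576 in 1 PTH left library, replicate 16, where the median of PTH left limbs was 95.2, and was 17.4 in the right limb of the same mouse, the lowest of the PTH right limbs, whose median was 73.1. The sum was higher on the left in 5 of 7 PTH mice.

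Articular surface genes ran the other way, with 7 of 19 positive and a median of -0.05 in PTH mice, and 18 of 19 positive, 4 under an unadjusted p of 0.05 and a median of 0.52 in vehicle mice, where 47.8% of all genes tested were positive and 4.48% were under that p. Osteocyte genes had 2 of 11 positive and a median of -0.27 in PTH mice, and 10 of 11 positive, 4 under that p, against the same 4.48% of all genes, and a median of 0.37 in vehicle mice. Members of a list come from the same libraries and are not replicates. The difference between treatments was tested gene by gene, and 0 genes passed by limma.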
